A study of Mus musculus with 28 samples.

Results

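The genes described here are 10 genes of the trophoblast, the lineage that forms the outer cells of the blastocyst and later the placenta. They were chosen by name, with earlier results of these data known, as Elf5, Cdx2, Eomes, Gata3, Tfap2c, Hand1, Tead4, Krt8, Krt18 and Krt7. All 10 were found among the 37991 gene identifiers of the deposited RNA-seq counts, and Tfap2c was found under its older symbol Tcfap2c.

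The study asked how the corepressor KAP1, DNA methylation and the TET enzymes act together on transcription in naive mouse embryonic stem (ES) cells. The RNA-seq data comprised 16 libraries of J1 cells of the 129S4/SvJae strain, of mutant lines lacking Dnmt1, Dnmt3a and Dnmt3b (DNMT TKO), and of mutant lines lacking Tet1, Tet2 and Tet3 (TET TKO). DNMT enzymes add DNA methylation and TET enzymes oxidise it to 5-hydroxymethylcytosine (5hmC). All cells were grown without serum, in N2B27 with LIF and the paired kinase inhibitors known as 2i, which hold them in the naive state. Each genotype received a lentivirus with an empty vector (shEmpty) or with a hairpin against Kap1 (shKap1, gene Trim28), so every group, controls included, was transduced and selected with puromycin at 4 µg/mL. Cells were collected 5 days after transduction. There were 3 libraries of WT shEmpty, 3 of WT shKap1, 3 of DNMT TKO shEmpty, 3 of DNMT TKO shKap1, 2 of TET TKO shEmpty and 2 of TET TKO shKap1. Each mutant genotype is 1 line or set of lines obtained from another laboratory, so genotype and the history of the line cannot be told apart. Loss of KAP1 stops these cells dividing and kills many of them at about the time of collection. By the study's account, replicates of each genotype came from independent experiments.

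In the blastocyst, the Hippo effector TEAD4 switches on Cdx2 and Gata3 in outer cells, and these with Eomes, Tfap2c and Elf5 establish and keep the trophoblast fate. Elf5 is held as a gate between the lineages: its promoter is methylated in cells of the embryo proper, including ES cells, and unmethylated in trophoblast stem cells, where ELF5, CDX2 and EOMES sustain one another. Keratins 7, 8 and 18 build the filaments of the trophectoderm, the first epithelium, and HAND1 drives formation of the invasive trophoblast giant cells.

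CpG dinucleotides are the sites that DNMT enzymes methylate, so promoter sequences are shown for Elf5, whose silencing in ES cells is ascribed to its methylation, and for 4 members whose RNA differed in DNMT TKO cells, Cdx2, Eomes, Krt8 and Krt18. They are RefSeq promoters of the assembly GRCm38.p6 that were each matched exactly, at 1 place, in mm9, the build of all coordinates given here. The window was the 250 bases before the start. It is printed from the end farthest from the start up to the first base inside an annotated exon. Capitals mark CpG dinucleotides. The Elf5 sequence, chr2:103263975-103264218 on the plus strand, precedes a RefSeq start that lies 12379 bp inside the gene. A second RefSeq window of Elf5 near the first exon began in an annotated exon and is not printed. The Cdx2 sequence is chr5:148118847-148119075 (minus strand), that of Eomes is chr9:118387057-118387306 (plus strand), that of Krt8 is chr15:101834774-101835023 (minus strand) and that of Krt18 is chr15:101858397-101858646 (plus strand).
Elf5: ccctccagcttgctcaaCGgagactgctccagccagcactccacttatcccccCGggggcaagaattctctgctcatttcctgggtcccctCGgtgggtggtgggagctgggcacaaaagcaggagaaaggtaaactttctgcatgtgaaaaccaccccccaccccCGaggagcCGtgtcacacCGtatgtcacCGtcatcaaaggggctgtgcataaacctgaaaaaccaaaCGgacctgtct
Cdx2: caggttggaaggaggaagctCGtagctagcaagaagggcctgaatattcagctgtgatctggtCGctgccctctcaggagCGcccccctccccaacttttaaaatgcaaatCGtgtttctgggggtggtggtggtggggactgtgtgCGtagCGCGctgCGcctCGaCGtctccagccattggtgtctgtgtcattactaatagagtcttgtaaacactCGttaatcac
Eomes: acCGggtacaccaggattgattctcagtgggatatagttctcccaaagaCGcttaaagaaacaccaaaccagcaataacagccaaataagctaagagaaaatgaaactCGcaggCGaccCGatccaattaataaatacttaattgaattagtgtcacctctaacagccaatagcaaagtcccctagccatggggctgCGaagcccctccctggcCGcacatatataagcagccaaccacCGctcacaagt
Krt8: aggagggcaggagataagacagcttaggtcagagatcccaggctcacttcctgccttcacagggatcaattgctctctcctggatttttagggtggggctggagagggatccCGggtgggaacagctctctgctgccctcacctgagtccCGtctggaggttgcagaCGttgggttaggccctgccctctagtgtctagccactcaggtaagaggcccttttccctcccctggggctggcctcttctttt
Krt18: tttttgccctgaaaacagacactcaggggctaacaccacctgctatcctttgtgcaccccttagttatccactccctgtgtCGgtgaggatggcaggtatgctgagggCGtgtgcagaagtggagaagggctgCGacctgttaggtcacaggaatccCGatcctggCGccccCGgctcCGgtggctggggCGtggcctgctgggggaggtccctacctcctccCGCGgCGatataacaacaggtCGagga
Over all 32841 promoters of the table the median was 6 CpG per 250 bases. The printed Elf5 window and that of Eomes held 8 CpG each, a number that 59.7% of promoters reached or fell below, and the unprinted Elf5 window, 409 bp from the annotated start of the gene, held 2 (29.0%). Krt8 held 3 (37.8%), Krt18 held 12 (68.5%) and Cdx2 held 13 (70.6%), of which 11 are in the printed stretch. Gata3, with 19 (82.0%), and Krt7, with 16 (76.5%), had the most. They are not printed because only 0 and 82 bases of their windows came before the first base inside an exon. Promoters of Tfap2c, Hand1 and Tead4 were not used here. DNA methylation itself was not measured in the files used.

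Reads on genes numbered 18108431 to 29373696 per library. Levels are given as CPM, read counts scaled to a common library size, with TMM factors that correct for differences in library composition. Within the WT and DNMT TKO groups the library numbered 1 stood apart, with a chi-square per gene of 11.1 to 15.3 against the other libraries of its group and 1.81 to 5.97 between those. For the 2 TET TKO shEmpty libraries this value was 45.6, and for the 2 of TET TKO shKap1 1.68. The targeted gene Trim28 fell from 1630–1990 to 149–190 CPM in WT, from 1700–2090 to 327–506 CPM in DNMT TKO and from 1770–1900 to 163–168 CPM in TET TKO, log2 changes of -3.41, -2.13 and -3.47. In DNMT TKO shEmpty cells Dnmt1, Dnmt3a and Dnmt3b were lower than in WT by log2 values of -1.65, -3.04 and -2.64. In TET TKO, Tet1 and Tet2 were lower by -1.49 and -2.16, while Tet3 differed by -0.03 (adjusted p = 0.924). Counts over the whole gene can stay up after deletion of some exons. All 8 ES cell markers (Pou5f1, Nanog and others) were detected in each group, with a summed level of 5170 to 6720 CPM with shEmpty and 3320 to 4510 CPM with shKap1. Fibroblast markers, which feeder cells would bring, summed to 3.15 to 11.6 CPM.

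Compared per length of exon sequence (RPKM, which is CPM per kilobase of exons), the members spanned a wide range in WT shEmpty cells. Krt8 had the highest mean level, 24.1 RPKM, then Tead4 (18.7), Tfap2c (15.1), Krt18 (7.76) and Eomes (4.87). Cdx2 (0.658), Gata3 (0.335) and Krt7 (0.295) were low, and Elf5 (0.0387) and Hand1 (0.0237) were close to the limit of detection. All 10 passed the filter of at least 16 reads over all libraries. Krt8 and Krt18 have near-identical processed copies elsewhere in the genome, and only unique reads were counted, so reads shared with a copy are missing from their levels. In these bulk samples, fewer cells of a type and less RNA per cell cannot be told apart.

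**Figure D1:**
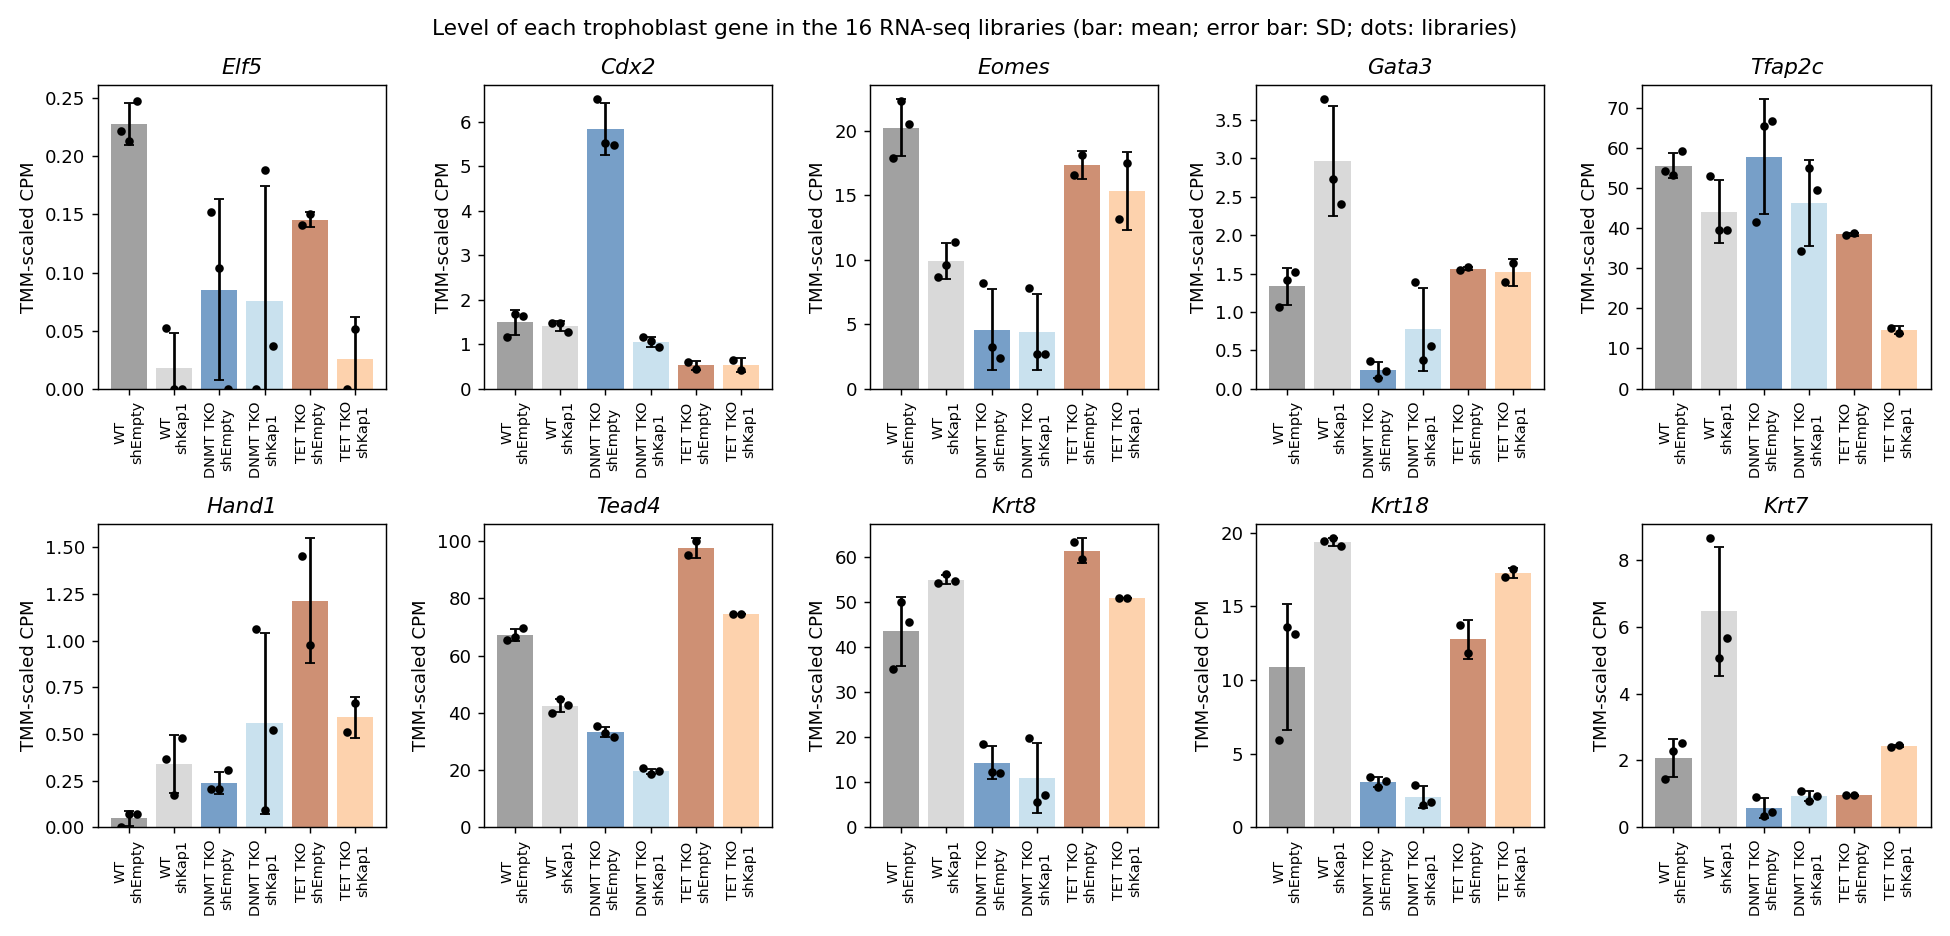
Level of each member in TMM-scaled CPM (linear axes from 0, a separate scale per gene) in the 6 groups, with a bar for the mean, an error bar for the SD and a dot for each library. Elf5 stayed under 0.25 CPM in every library, Cdx2 was highest in DNMT TKO shEmpty cells, and Krt7 was highest in WT shKap1 cells.

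Comparison of genotypes with the empty vector asked whether loss of the DNMT enzymes, or of the TET enzymes, altered trophoblast RNA without Kap1 depletion. By the study's account, most of the genome of naive WT cells is already low in DNA methylation. How far Elf5 and the other members were methylated in these WT cells was not measured in the data used. A call needed an adjusted p below 0.05 in edgeR's quasi-likelihood test, with Benjamini-Hochberg adjustment over 20321 genes, and a change of at least 2-fold. In DNMT TKO cells 1 member was higher (Cdx2) and 6 were lower (Eomes, Gata3, Tead4, Krt8, Krt18 and Krt7). Of all genes tested, 8.23% were called higher and 8.05% lower. The median log2 difference was -1.53 over the 10 members and -0.02 over all genes. In TET TKO cells 1 member was higher (Hand1) and 2 were lower (Cdx2 and Krt7), against 5.66% and 4.8% of all genes, with a median of -0.01 over the members and 0 over all genes. Both comparisons used the same WT shEmpty libraries and are not independent of each other.

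**Figure D2:**
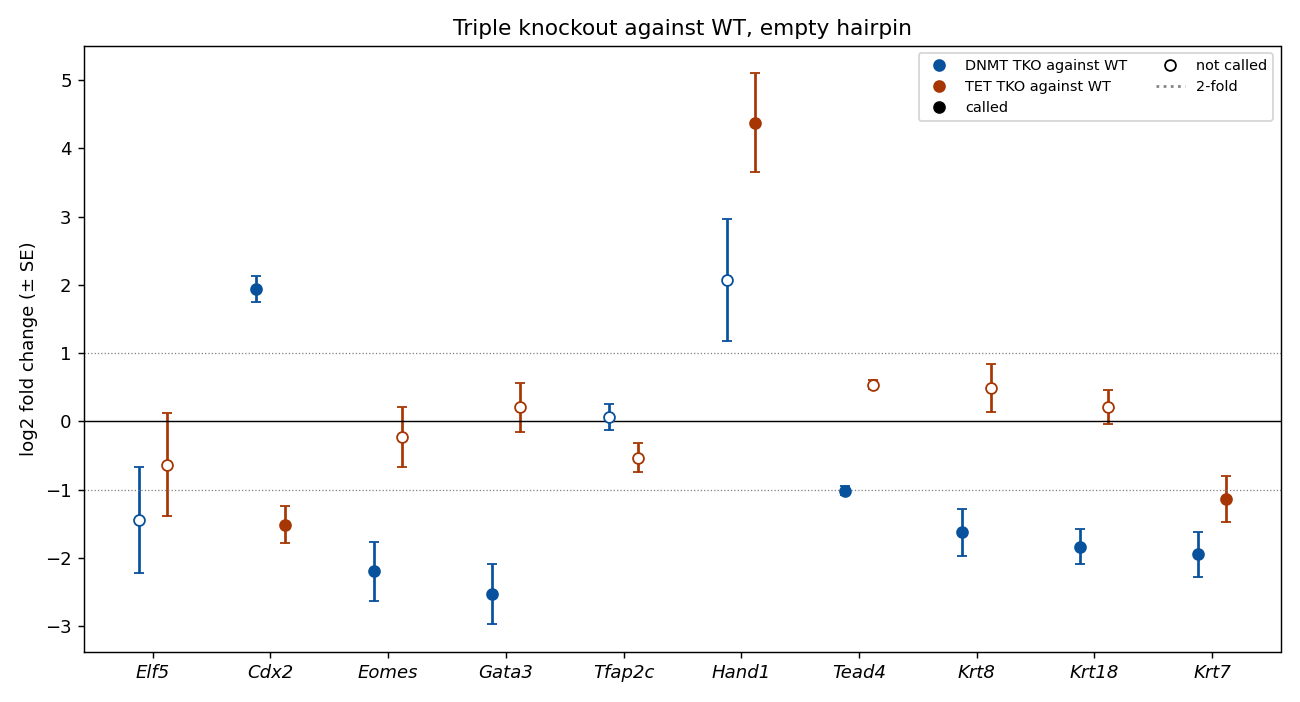
Fitted log2 fold change of each member against WT with shEmpty (vertical axis, error bar ± SE) in DNMT TKO and TET TKO cells, with filled points for calls and dotted lines at 2-fold. In DNMT TKO the points of Eomes, Gata3, Tead4 and the 3 keratins lie below the lower line and that of Cdx2 lies at 1.94, and in TET TKO that of Hand1 lies at 4.37.

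Elf5 (ENSMUSG00000027186, chr2:103251845-103291146, plus strand) encodes an ETS factor that reinforces Cdx2 and Eomes in trophoblast stem cells. WT shEmpty cells had 4, 6 and 7 reads, or 0.222, 0.213 and 0.248 CPM. DNMT TKO shEmpty cells had 3, 3 and 0 reads, or 0.152, 0.104 and 0 CPM. TET TKO shEmpty cells had 4 reads in each of the 2 libraries, or 0.141 and 0.150 CPM. All 3 WT libraries lay above all libraries of both mutants, so with shEmpty Elf5 was not higher in any DNMT TKO library than in WT. From the pooled 6 and 17 reads, the ratio of DNMT TKO to WT was 0.352, with an exact 95% interval of 0.114 to 0.936 that covers counting error only. The fitted log2 difference was -1.44 ± 0.77 (SE, adjusted p = 0.146) in DNMT TKO and -0.63 ± 0.76 (adjusted p = 0.595) in TET TKO, and neither was called. At this depth 3 reads over a group amount to 0.0402 to 0.073 CPM, and the pooled levels of WT shKap1 and TET TKO shKap1, 0.0164 and 0.0243 CPM, lay below it.

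Cdx2 (ENSMUSG00000029646, chr5:148112381-148118846, minus strand) is the homeobox factor that specifies the trophectoderm. It measured 1.17, 1.67 and 1.63 CPM in WT shEmpty cells, 6.50, 5.52 and 5.48 CPM in DNMT TKO and 0.599 and 0.451 CPM in TET TKO. The 3 groups did not overlap, DNMT TKO being highest and TET TKO lowest. Cdx2 was higher in DNMT TKO by 1.94 ± 0.19 (log2, adjusted p = 2.23e-07) and lower in TET TKO by -1.51 ± 0.27 (adjusted p = 0.000419). Both calls were kept when any 1 library was left out, with ranges of 1.81 to 2.03 and -1.73 to -1.33. Cdx2 is also a gene of the posterior embryo, and some mesoderm markers were higher in DNMT TKO too. Of 7 listed, 3 were called higher and 0 lower, against 8.23% and 8.05% of all genes (T, the brachyury gene, 1.78 ± 0.23, Kdr, a receptor of vascular precursors, 2.15 ± 0.27, and Mixl1, 1.38 ± 0.29), and their sum was 5.8–6.72 CPM in WT, 17.7–21.5 CPM in DNMT TKO and 5.52–5.57 CPM in TET TKO, with none of the 7 at 0 throughout any of these groups. T was lower in TET TKO (-1.55 ± 0.31) and Mixl1 higher (1.30 ± 0.31). Their part in the Cdx2 values was not tested.

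Eomes (ENSMUSG00000032446, chr9:118387330-118395250, plus strand), a T-box factor needed for trophoblast proliferation, measured 17.9, 22.3 and 20.5 CPM in WT shEmpty cells and 8.18, 3.21 and 2.35 CPM in DNMT TKO. Every DNMT TKO library lay below every WT library, and the one numbered 1 was the highest of its group. The difference was -2.19 ± 0.43 (log2, adjusted p = 0.00126). In TET TKO, Eomes measured 16.6 and 18.1 CPM, overlapping the WT libraries, with a difference of -0.22 ± 0.43 (adjusted p = 0.765). Gata3 (ENSMUSG00000015619, chr2:9778705-9811661, minus strand), a zinc finger factor that acts beside CDX2 downstream of TEAD4, measured 1.06, 1.42 and 1.52 CPM in WT and 0.355, 0.138 and 0.231 CPM in DNMT TKO. These groups did not overlap either, and the difference was -2.53 ± 0.44 (adjusted p = 0.000132), from 17 reads in DNMT TKO against 102 in WT. TET TKO cells had 1.55 and 1.58 CPM of Gata3, a difference of 0.21 ± 0.36 (adjusted p = 0.725).

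Tfap2c (ENSMUSG00000028640, chr2:172375093-172384122, plus strand) encodes the AP-2 gamma factor, which is also active in ES cells. Its levels were 54.3, 53.3 and 59.1 CPM in WT shEmpty cells, 41.4, 65.4 and 66.7 CPM in DNMT TKO, and 38.2 and 38.7 CPM in TET TKO. WT lay inside the range of DNMT TKO, while both TET TKO libraries were below all the others. The differences were 0.06 ± 0.19 (log2, adjusted p = 0.824) and -0.53 ± 0.22 (adjusted p = 0.0889), and neither was called.

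Hand1 (ENSMUSG00000037335, chr11:57642207-57646320, minus strand), the basic helix-loop-helix factor of giant cells, was nearly silent in WT shEmpty cells, with 0, 0.0712 and 0.0708 CPM. In TET TKO it measured 1.45 and 0.976 CPM, and in DNMT TKO 0.203, 0.207 and 0.308 CPM. Both mutants lay above every WT library, and TET TKO lay above DNMT TKO. The pooled reads were 67 in TET TKO and 4 in WT, a ratio of 22.7 with an exact interval of 8.45 to 85.5 from counting error. The fitted difference in TET TKO was 4.37 ± 0.72 (log2, adjusted p = 0.000171), with a range of 4.00 to 4.66 when 1 library was left out. In DNMT TKO it was 2.07 ± 0.89 (adjusted p = 0.0707), which was not called, from 18 reads against 4. It was called with only the groups compared (2.10, adjusted p = 0.0283), and in none of the other 14 alternatives. The median gene of chromosome 11, where Hand1 lies, was higher in DNMT TKO by 0.29 (log2) and differed by -0.01 in TET TKO, and the part of this shift in the Hand1 values was not tested.

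Tead4 (ENSMUSG00000030353, chr6:128174306-128250841, minus strand), the DNA-binding partner of YAP in the Hippo pathway, was well expressed in all groups. It measured 65.4, 66.6 and 69.5 CPM in WT shEmpty cells, 35.3, 32.9 and 31.7 CPM in DNMT TKO and 95.1 and 100 CPM in TET TKO. The 3 groups were apart, in the order TET TKO, WT, DNMT TKO. The difference was -1.01 ± 0.06 (log2, adjusted p = 5.55e-10) in DNMT TKO, just past 2-fold, and 0.54 ± 0.07 (adjusted p = 8.42e-06) in TET TKO, under 2-fold. The DNMT TKO call was kept in 9 of 15 alternatives. It fell short of 2-fold, at -0.99 to -0.97, without the third WT shEmpty library (-0.99), without the third DNMT TKO shEmpty library (-0.98), with DESeq2 size factors, with the DESeq2 Wald test, with no filter on reads and with only the groups compared. The median gene of chromosome 6, where Tead4 lies, was lower in DNMT TKO by -0.29, and the part of this in the Tead4 value was not tested. Among the 12 other Hippo pathway genes listed, 1 was higher in DNMT TKO (Amotl1, a scaffold that holds YAP at junctions, 1.12 ± 0.15) and 1 lower (Vgll4, a cofactor that competes with YAP for TEAD factors, -1.05 ± 0.11), a share near the 8.23% and 8.05% of all genes.

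The 3 keratins were all lower in DNMT TKO cells. Krt8 (ENSMUSG00000049382, chr15:101827142-101834773, minus strand) measured 35.0, 49.9 and 45.6 CPM in WT shEmpty cells and 18.5, 12.3 and 12.1 CPM in DNMT TKO, and differed by -1.62 ± 0.35 (log2, adjusted p = 0.00255). Krt18 (ENSMUSG00000023043, chr15:101858647-101862457, plus strand), the partner that pairs with keratin 8 in filaments, measured 5.94, 13.6 and 13.1 CPM in WT and 3.40, 2.73 and 3.16 CPM in DNMT TKO, and differed by -1.84 ± 0.26 (adjusted p = 2.59e-05). For both genes every DNMT TKO library was below every WT library, and the WT library numbered 1 was the lowest of its group. Krt7 (ENSMUSG00000023039, chr15:101241474-101260744, plus strand), a keratin of the later trophoblast, measured 1.44, 2.28 and 2.51 CPM in WT and 0.914, 0.345 and 0.463 CPM in DNMT TKO, and differed by -1.94 ± 0.33 (adjusted p = 0.000105). Its groups did not overlap. In TET TKO, Krt8 (63.3 and 59.4 CPM) and Krt18 (13.7 and 11.8 CPM) were not called, with differences of 0.49 ± 0.35 (adjusted p = 0.357) and 0.21 ± 0.25 (adjusted p = 0.591). TET TKO cells had 0.952 and 0.976 CPM of Krt7, below every WT library, a difference of -1.13 ± 0.34 (adjusted p = 0.0177). The last call was lost without WT shEmpty library 2 (-1.07, adjusted p = 0.0523) or 3 (-0.98, adjusted p = 0.0684), and without TET TKO shEmpty library 1 (-1.11, adjusted p = 0.106) or 2 (-1.15, adjusted p = 0.0898). Over its 14 alternatives the adjusted p of Krt7 in TET TKO ran from 1.44e-05 to 0.106.

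Lists of other genes of the lineage, also chosen with earlier results of these data known, were set beside the members. Their counts are to be read against the 8.23% of all genes called higher and 8.05% lower in DNMT TKO, and 5.66% and 4.8% in TET TKO. Among 14 epithelial genes of the trophectoderm, 0 were higher and 7 lower in DNMT TKO (median log2 near -1). They included the tight junction claudins Cldn6 (-2.46 ± 0.18) and Cldn7 (-2.12 ± 0.26). Of 16 placental product genes only 7 passed the filter on reads, and in DNMT TKO 1 of those was higher and 4 were lower (median -2.16), among them Plet1, a surface protein gene of trophoblast stem cells (-2.16 ± 0.12), and Peg10, an imprinted gene needed for placenta formation (-3.18 ± 0.33). Of 20 further trophoblast regulators, 2 were higher and 5 lower in DNMT TKO (median -0.33), with the epithelial factor Grhl2 higher (2.24 ± 0.26) and the FGF receptor Fgfr2 lower (-2.08 ± 0.45). In TET TKO cells 2 of these regulators were higher and 3 lower, with Tfap2a, a relative of Tfap2c, higher (1.88 ± 0.10). In the same cells 0 of the epithelial genes were higher and 3 lower, and 2 of the placental genes were higher and 2 lower.

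Knockdown of Kap1 asked what loss of the corepressor did to the members within each genotype. In WT cells 3 members rose (Gata3, Hand1 and Krt7) and 1 fell (Elf5), where 10.8% of all genes were called higher and 6.54% lower. In DNMT TKO 1 rose (Gata3) and 1 fell (Cdx2), against 10.1% and 2.42% of all genes. In TET TKO 1 rose (Krt7) and 1 fell (Tfap2c), against 8.05% and 4.46%. The median log2 change of the members was 0.12, -0.23 and -0.22 in WT, DNMT TKO and TET TKO, and that of all genes lay between -0.01 and 0.02. When the 4 libraries numbered 1 of WT and DNMT TKO, which stood apart, were left out together, an alternative chosen after seeing the data, 4 members were called in WT (Elf5, Eomes, Hand1 and Krt7), 3 in DNMT TKO (Cdx2, Gata3 and Krt7) and 3 in TET TKO (Hand1, Krt7 and Tfap2c). The share of all genes called in that fit was not counted, so these counts cannot be set against it. Without those libraries the change of Gata3 in WT was 0.82, under 2-fold, and the 7 members called for DNMT TKO against WT and the 3 for TET TKO against WT were called again.

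**Figure D3:**
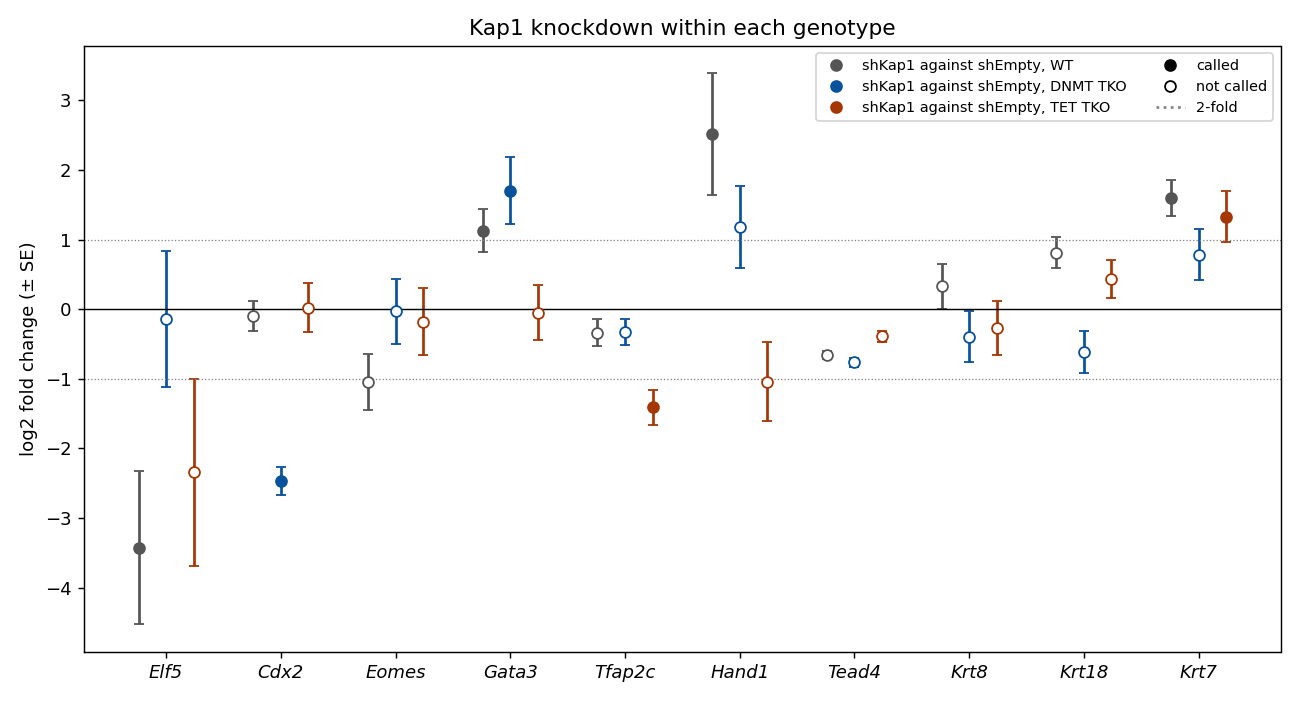
Fitted log2 fold change of shKap1 against shEmpty (vertical axis, error bar ± SE) for each member in WT, DNMT TKO and TET TKO cells, with filled points for calls and dotted lines at 2-fold. The lowest point of WT is Elf5 at -3.42, that of DNMT TKO is Cdx2 at -2.47 and the filled point of TET TKO below the lower line is Tfap2c at -1.41.

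Elf5 had 1, 0 and 0 reads in WT shKap1 cells (0.0524, 0 and 0 CPM), against the 4, 6 and 7 reads with shEmpty. It had 0, 4 and 1 reads in DNMT TKO shKap1 (0, 0.188 and 0.0371 CPM) and 0 and 1 reads in TET TKO shKap1 (0 and 0.0513 CPM). Every WT shKap1 library lay below every WT shEmpty library, while the hairpins overlapped in DNMT TKO. From 1 against 17 reads the ratio in WT was 0.0718 (exact interval 0.00172 to 0.458, counting error only), and the fitted change was -3.42 ± 1.10 (log2, adjusted p = 0.0164). The call was lost without WT shKap1 library 2 (-2.87, adjusted p = 0.0725) or 3 (-2.99, adjusted p = 0.0586). Over its 14 alternatives the adjusted p ran from 0.00585 to 0.0725. The ratio in DNMT TKO was 0.900 from 5 against 6 reads (0.217 to 3.54), and in TET TKO 0.167 from 1 against 8 reads (0.00377 to 1.25), and neither was called. The fitted log2 change in DNMT TKO turned between alternatives, from -1.74 to 0.85, and was called in none of 13. The knockdown effect in DNMT TKO minus that in WT was 3.28 ± 1.59 (adjusted p = 0.175), so a difference between the genotypes was not shown. Over 19 alternatives it ran from 1.67 to 6.39, and 18 of them left it uncalled. It was called only without the 4 libraries numbered 1 of WT and DNMT TKO, where the WT shKap1 libraries left had 0 reads.

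Cdx2 measured 1.47, 1.47 and 1.28 CPM in WT shKap1 cells, 1.15, 1.08 and 0.927 CPM in DNMT TKO shKap1 and 0.648 and 0.411 CPM in TET TKO shKap1. The hairpins overlapped in WT and in TET TKO. In DNMT TKO each shKap1 library lay far below each shEmpty library. The DNMT TKO shKap1 libraries also lay below each library of WT, but only narrowly. The highest of them had 24 reads (1.15 CPM) and the lowest WT library, with shEmpty, had 21 (1.17 CPM). The change in DNMT TKO was -2.47 ± 0.20 (log2, adjusted p = 5.35e-08), from 430 to 72 pooled reads. It was -0.10 ± 0.22 in WT (adjusted p = 0.746) and 0.02 ± 0.35 in TET TKO (adjusted p = 0.981). The knockdown effect in DNMT TKO was below that in WT by -2.37 ± 0.30 (adjusted p = 2.32e-05), 1 of 2 members called lower in this contrast and 0 called higher. Of all genes, 2.48% were called lower and 4.66% higher. The knockdown itself was less deep in DNMT TKO, where Trim28 fell by -2.13 on the log2 scale against -3.41 in WT, and its part in these differences was not tested.

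Eomes measured 8.65, 9.57 and 11.4 CPM in WT shKap1 cells, 7.83, 2.68 and 2.71 CPM in DNMT TKO shKap1 and 13.2 and 17.5 CPM in TET TKO shKap1. The WT hairpins did not overlap, but the change of -1.04 ± 0.41 (log2, adjusted p = 0.0536) missed the threshold. With limma-voom it was called (-1.06, adjusted p = 0.00329), and over 15 alternatives the adjusted p ran from 2.52e-08 to 0.142. In DNMT TKO the change was -0.03 ± 0.47 (adjusted p = 0.974), which turned with the library left out, from -0.71 without DNMT TKO shKap1 library 1 to 0.59 without DNMT TKO shEmpty library 1 and was called in none of 15 alternatives, and in TET TKO -0.18 ± 0.48 (adjusted p = 0.833).

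Gata3 rose in WT and DNMT TKO cells. It measured 3.77, 2.73 and 2.40 CPM in WT shKap1, 1.39, 0.376 and 0.556 CPM in DNMT TKO shKap1 and 1.39 and 1.64 CPM in TET TKO shKap1. In WT and DNMT TKO every shKap1 library lay above every shEmpty library, and the library numbered 1 was the highest of each shKap1 group. The change was 1.13 ± 0.31 (log2, adjusted p = 0.00645) in WT, 1.70 ± 0.48 (adjusted p = 0.00992) in DNMT TKO and -0.05 ± 0.40 (adjusted p = 0.953) in TET TKO. Without WT shKap1 library 1 the WT change was 0.94, under 2-fold (adjusted p = 0.0292). The DNMT TKO call was lost without DNMT TKO shEmpty library 2 (1.39, adjusted p = 0.0576) or DNMT TKO shKap1 library 1 (1.03, adjusted p = 0.0885). Adjusted p ran over 15 alternatives from 0.00206 to 0.0292 in WT and from 0.00322 to 0.0885 in DNMT TKO. The effects in the mutants were not shown to differ from that in WT (adjusted p = 0.558 for DNMT TKO and 0.163 for TET TKO).

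Tfap2c measured 53.1, 39.5 and 39.5 CPM in WT shKap1 cells, 34.3, 55 and 49.6 CPM in DNMT TKO shKap1, and 15.2 and 13.8 CPM in TET TKO shKap1. Both TET TKO shKap1 libraries lay below all the other 14 libraries. The change there was -1.41 ± 0.25 (log2, adjusted p = 0.00087), with -0.34 ± 0.19 in WT (adjusted p = 0.174) and -0.32 ± 0.19 in DNMT TKO (adjusted p = 0.216). The effect in TET TKO minus that in WT was -1.07 ± 0.32 (adjusted p = 0.0516), just outside the threshold, and under 19 alternatives its adjusted p ran from 1.26e-08 to 0.186, with a call in 3 of them.

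Hand1 measured 0.367, 0.173 and 0.480 CPM in WT shKap1 cells, all above WT shEmpty. It measured 1.06, 0.0941 and 0.519 CPM in DNMT TKO shKap1 and 0.509 and 0.667 CPM in TET TKO shKap1. The hairpins overlapped in DNMT TKO, and in TET TKO both shKap1 libraries were below both shEmpty libraries. In WT 20 reads stood against 4, a ratio of 6.10 (exact interval 2.04 to 24.6, counting error only) and a fitted change of 2.52 ± 0.87 (log2, adjusted p = 0.0245). This call was lost without WT shEmpty library 1 (2.14, adjusted p = 0.0613), WT shKap1 library 1 (2.46, adjusted p = 0.0518) or WT shKap1 library 3 (2.21, adjusted p = 0.0864), and over 15 alternatives the adjusted p ran from 0.0161 to 0.0864. The change was 1.18 ± 0.59 (adjusted p = 0.132) in DNMT TKO and -1.04 ± 0.57 (adjusted p = 0.186) in TET TKO. In DNMT TKO it ran from 0.33 to 1.62 over 15 alternatives, called only without DNMT TKO shKap1 library 2 (1.62, adjusted p = 0.0152). The TET TKO change was called with only the groups compared (-1.01, adjusted p = 0.027) and without the 4 libraries numbered 1 of WT and DNMT TKO (-1.03, adjusted p = 0.0445). It stayed uncalled in the other 11 of 13 alternatives. The effect in TET TKO minus that in WT was -3.56 ± 1.04 (adjusted p = 0.0378), the only member called in this contrast, where 2.08% of all genes were called higher and 2.13% lower. It lost the call in 9 of 10 fits that left out 1 library, with values of -3.85 to -3.19.

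Tead4 measured 40.1, 44.7 and 42.8 CPM in WT shKap1 cells, 20.6, 18.8 and 19.5 CPM in DNMT TKO shKap1 and 74.5 and 74.4 CPM in TET TKO shKap1. In each genotype all shKap1 libraries were below all shEmpty libraries, and the 6 groups did not overlap. The changes were all under 2-fold, -0.66 ± 0.06 (log2, adjusted p = 1.23e-07) in WT, -0.76 ± 0.07 (adjusted p = 9.77e-08) in DNMT TKO and -0.39 ± 0.07 (adjusted p = 0.000556) in TET TKO. Among the 12 other Hippo genes, 2 rose in WT, Amot, a scaffold that binds YAP (1.71 ± 0.24), and Vgll4 (1.12 ± 0.10), where 10.8% of all genes rose. None of the 12 was called in DNMT TKO or TET TKO.

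Krt8 measured 54.1, 56.1 and 54.5 CPM in WT shKap1 cells, 19.8, 5.69 and 7.27 CPM in DNMT TKO shKap1 and 50.9 CPM in both TET TKO shKap1 libraries. All WT shKap1 libraries lay above all WT shEmpty libraries, both TET TKO shKap1 libraries lay below shEmpty, and the hairpins overlapped in DNMT TKO. None of the changes was called, at 0.33 ± 0.32 (log2, adjusted p = 0.444), -0.39 ± 0.37 (adjusted p = 0.458) and -0.27 ± 0.39 (adjusted p = 0.667). In DNMT TKO the library numbered 1 stood well above the other two. Without it the change was -1.12 (adjusted p = 0.000682), a fall of over 2-fold, and over 15 alternatives the adjusted p ran from 5.55e-09 to 0.815.

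Krt18 measured 19.4, 19.6 and 19.1 CPM in WT shKap1 cells, 2.88, 1.5 and 1.71 CPM in DNMT TKO shKap1 and 17.0 and 17.5 CPM in TET TKO shKap1. It lay above shEmpty in all libraries of WT and of TET TKO, and overlapped shEmpty in DNMT TKO. The changes were 0.81 ± 0.23 (log2, adjusted p = 0.00799) in WT, under 2-fold, -0.61 ± 0.30 (adjusted p = 0.132) in DNMT TKO and 0.43 ± 0.28 (adjusted p = 0.272) in TET TKO. The effect in DNMT TKO was below that in WT by -1.43 ± 0.38 (adjusted p = 0.0148), and this call was kept in all 21 alternatives, with values of -1.74 to -1.15.

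Krt7 measured 8.65, 5.07 and 5.65 CPM in WT shKap1 cells, 1.10, 0.799 and 0.927 CPM in DNMT TKO shKap1 and 2.41 and 2.46 CPM in TET TKO shKap1. In WT and TET TKO all shKap1 libraries were above all shEmpty libraries, and in DNMT TKO the hairpins overlapped. It rose by 1.60 ± 0.26 (log2, adjusted p = 5.76e-05) in WT and 1.33 ± 0.36 (adjusted p = 0.00927) in TET TKO, with 0.78 ± 0.37 (adjusted p = 0.111) in DNMT TKO. The WT call was kept in all 15 alternatives. That in TET TKO was lost without TET TKO shEmpty library 1 (1.31, adjusted p = 0.0578), and ran over 13 alternatives from 1.49e-05 to 0.0578. The effects in DNMT TKO and TET TKO were not shown to differ from that in WT (adjusted p = 0.244 and 0.784).

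Other genes of the lineage moved in both directions after Kap1 depletion. Of all genes, 10.8% rose and 6.54% fell in WT, 10.1% and 2.42% in DNMT TKO, and 8.05% and 4.46% in TET TKO. Of the 20 trophoblast regulators, 4 rose and 4 fell in WT, 2 rose and 2 fell in DNMT TKO, and 2 rose and 4 fell in TET TKO, so that the counts that rose in the mutants were near the share of all genes. Ascl2, a factor of the placental spongiotrophoblast, rose by 2.50 ± 0.30 in WT and 2.08 ± 0.31 in DNMT TKO. Klf5, which serves both trophectoderm and ES cells, fell by -1.45 ± 0.11 in WT, and Gata2, a factor of giant cells, fell by -1.02 ± 0.22 in WT, -1.77 ± 0.28 in DNMT TKO and -2.92 ± 0.29 in TET TKO. Among the 14 epithelial genes, 2 rose and 2 fell in WT, 3 rose and 0 fell in DNMT TKO, and 3 rose and 2 fell in TET TKO. The junction gene Cgn (2.45 ± 0.17, 1.71 ± 0.18 and 1.97 ± 0.21) and the adhesion gene Epcam (1.17 ± 0.15, 1.69 ± 0.16 and 1.73 ± 0.19) rose in WT, DNMT TKO and TET TKO. Of the 7 placental genes tested, 3 rose in WT, 2 in DNMT TKO and 2 in TET TKO, and 1 fell in TET TKO. Peg10 rose in all 3 genotypes, by 2.79 ± 0.31 in WT (from 228 ± 54.0 to 1575 ± 837 CPM, SD, n = 3), 1.16 ± 0.33 in DNMT TKO and 2.10 ± 0.39 in TET TKO. Synb, a retroviral envelope gene used in fusion of placental cells, had 0 reads over the 3 DNMT TKO libraries with the empty vector and 647 over the 3 with the Kap1 hairpin, against 12 and 4 reads in WT and 2 and 37 in TET TKO.

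Marker genes of other states moved with the hairpin as well, and their counts are to be read against the shares of all genes given above. All 6 genes tested of the 2-cell state, in which ES cells switch on genes of the early cleavage embryo, rose in WT and in TET TKO, and 5 rose in DNMT TKO. Their summed level went from 14.3–27.1 to 210–227 CPM in WT, from 7.31–23.4 to 58.9–137 CPM in DNMT TKO and from 10.9–12.4 to 615–636 CPM in TET TKO, and none of the 6 was at 0 throughout a group. ES cell markers fell by a median of -0.81 in WT, where 2 of 8 (Sox2 and Klf4) were called. Of 8 primitive endoderm markers 1 rose (Sox17, 2.21 ± 0.37) and 3 fell in WT. Their sum went from 92.7–113 to 26.7–28.8 CPM, most of it from the laminin gene Lama1 (83.6 ± 13.1 to 11.4 ± 0.73 CPM). Of 4 neuroectoderm markers tested 3 rose in WT, and their sum, 38.9–49.1 and 105–124 CPM, was mostly Nes (43.9 ± 6.33 and 106 ± 8.63 CPM). Of the 7 mesoderm markers, 1 rose and 2 fell both in WT and in DNMT TKO. In DNMT TKO, where Cdx2 fell, their sum went from 17.7–21.5 to 10.4–11.2 CPM, with T falling from 9.93 ± 2.09 to 2.03 ± 0.05 CPM and Kdr from 5.78 ± 0.29 to 2.29 ± 0.72 CPM, while Mesp2 rose (2.04 ± 0.38). The fall of T was larger in DNMT TKO than in WT by -1.25 ± 0.37 (log2, adjusted p = 0.0228). With shEmpty, DNMT TKO differed from WT by 1 of 8 ES cell markers higher, 2 of 8 primitive endoderm markers lower, 1 of 4 neuroectoderm markers higher and 1 lower, and none of the 2-cell state. Of all genes, 8.23% were called higher and 8.05% lower. TET TKO differed by 1 of 8 primitive endoderm markers higher and 2 lower, and by none of the ES cell, neuroectoderm or 2-cell lists, against 5.66% and 4.8% of all genes. The part of these shifts in the member values was not tested. The 10 members themselves summed to 182–214 CPM in WT shEmpty, 177–190 CPM in WT shKap1, 115–123 CPM in DNMT TKO shEmpty, 83.8–90.2 CPM in DNMT TKO shKap1, 232 CPM in both TET TKO shEmpty libraries and 176–179 CPM in TET TKO shKap1. Most of the WT shEmpty sum came from Tead4 (67.2 ± 2.09 CPM, SD), Tfap2c (55.5 ± 3.09 CPM) and Krt8 (43.5 ± 7.64 CPM). The sums therefore do not show the changes of Cdx2 or of the other members with few reads.

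Within 250 kb of Elf5 lie Ehf, an ETS factor gene of epithelia upstream of it, and downstream Cat, the catalase gene, and Abtb2. Abtb2 went from 5.48 ± 0.31 to 22.7 ± 5.31 CPM in WT (SD, n = 3), a rise of 2.05 ± 0.21 (log2, adjusted p = 5.42e-07), the opposite direction to Elf5. Its rise was smaller in DNMT TKO by -1.26 ± 0.29 (adjusted p = 0.00607) and in TET TKO by -1.59 ± 0.33 (adjusted p = 0.00502). Cat was not called in any comparison. Ehf fell in TET TKO (-3.42 ± 1.21, adjusted p = 0.0453), and its changes in WT and DNMT TKO were -2.47 ± 1.00 (adjusted p = 0.0573) and -0.28 ± 0.64 (adjusted p = 0.783). Likeness to Elf5 in pattern over the 16 libraries, not in level, was taken as Pearson's r of log2 CPM. Among 13505 genes with at least 500 reads, the highest were Rcl1 (0.872), Nup153 (0.862), Dnalc4 (0.824), Rbbp5 (0.823) and Klf5 (0.818). This is a description, since Elf5 had 38 reads in all, the libraries share groups, and 2 of these 5 genes were among the 5 nearest by Spearman's rho.

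Chromatin marks of WT J1 cells were deposited as peak lists, called per replicate, and as a list of regions per mark on which 5hmC reads were counted. A member was counted where a region of the latter list lay within 1 kb of its annotated start. H3K4me3, a mark of active or poised promoters, was found at 8 of 10 members, all but Elf5 and Krt7, and at 60.3% of 22380 protein-coding genes. H3K27me3, the mark of Polycomb repression, was found at 6 members (Cdx2, Gata3, Tfap2c, Hand1, Krt18 and Krt7) and at 16.7% of genes. At their starts Cdx2, Gata3, Tfap2c, Hand1 and Krt18 thus carried both marks, and Eomes, Tead4 and Krt8 carried H3K4me3 alone within 1 kb. Among peaks above the median score in both replicates, H3K4me3 was left at 5 members (Cdx2, Eomes, Tfap2c, Tead4 and Krt8) and H3K27me3 at 6. With a window of 5 kb, or with a peak in either replicate, H3K4me3 was at 9 members, with Krt7 added, and H3K27me3 at 7, with Eomes added, whose nearest such region lay 1931 bp from its start. Shares of all genes were not counted for the peaks above the median, the 5 kb window or either replicate. The member counts under these settings cannot be set against the shares given above. The RefSeq starts of Krt7 and Gata3 lay 1359 and 11433 bp from the annotated starts used here. An H3K4me3 region overlapped the RefSeq promoter of each, and the counts were not repeated at those starts. No KAP1 region lay at the start of any member (3.48% of genes), nor an H3K9me3 region that depended on KAP1 (0.706%) or did not (0.165%).

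Elf5 was the member without any of these regions, at its start or within the gene. Its nearest KAP1 region lay 9489 bp from the start, outside the gene, its nearest H3K4me3 region 71372 bp, its nearest KAP1-dependent H3K9me3 region 117556 bp and its nearest H3K27me3 region 150156 bp away. The other 9 members were farther from a KAP1 region, the nearest being Tfap2c at 39648 bp. Repeats lay in or within 5 kb of every gene. Of 88 near Elf5, 0 reached 16 reads over all 16 libraries and all had 10 reads together. Near Tead4, 8 of 258 repeats reached that number, and 1 of them held 1643 of 2644 reads, and near Tfap2c 8 of 19 did. Reads of repeats that overlap a gene can also come from the transcript of the gene.

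**Figure D4:**
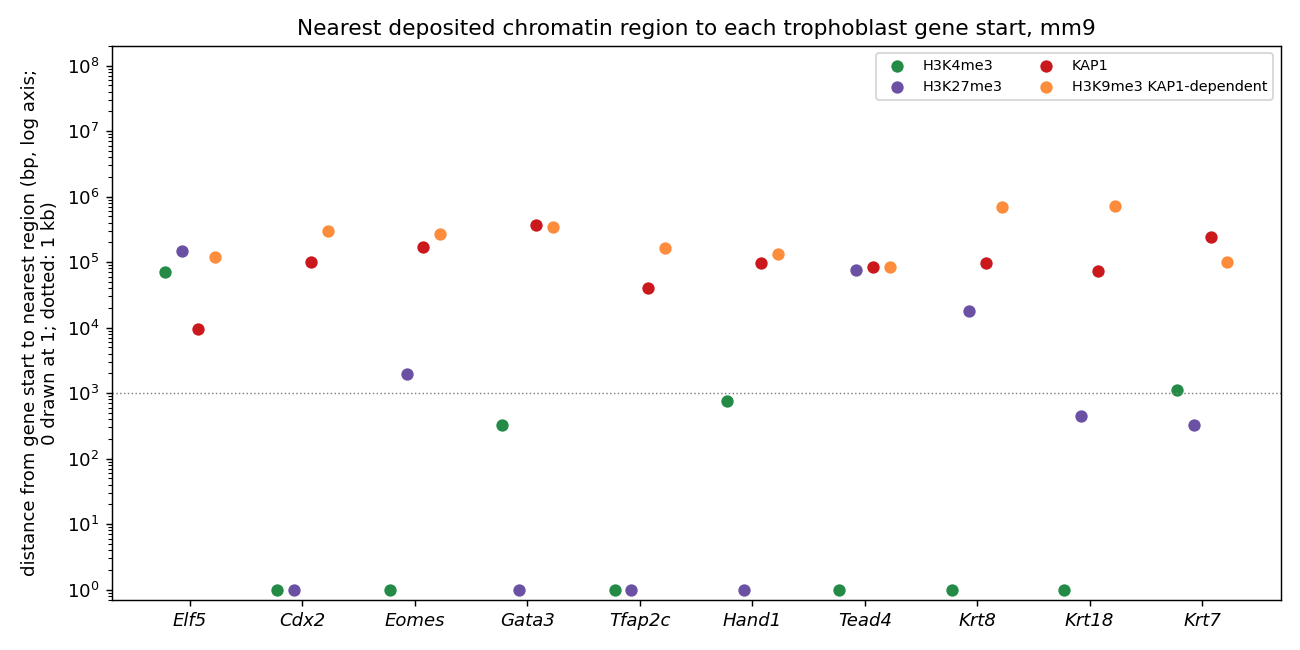
Distance from the annotated start of each member to the nearest deposited region of 4 sets (vertical log axis in bp, 0 drawn at 1, dotted line at 1 kb). KAP1 and KAP1-dependent H3K9me3 regions lie above the line for all 10 members, and Elf5 has no region of any set below it.

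Reads of 5hmC over the deposited regions were used from replicate 1 alone, with 1 library per hairpin in WT cells, because labels and file names of the other replicate disagree. No test was run, and intervals are exact and cover counting error only. Ratios of shKap1 to shEmpty were scaled to all reads in the same set of regions, which makes the set the reference. The median ratio was 1.00 over H3K4me3 regions and 1.12 over H3K27me3 regions. The members held 26 regions, and the interval lay above the median of its set in 6, below it in 0 and across it in 20. The 6 were 3 of 16 H3K4me3 regions (Hand1, Tead4 and Krt8) and 3 of 10 H3K27me3 regions (both of Hand1 and that of Krt7). They are not separate loci, since regions of different sets can share reads. The Hand1 H3K4me3 region, chr11:57644735-57645575, overlaps its H3K27me3 region chr11:57640401-57645399. Over all regions of the sets with reads in both libraries, 5.03% of H3K4me3 and 6.85% of H3K27me3 regions had an interval above the median. Hand1 had 112 reads with shEmpty and 194 with shKap1 in the H3K27me3 region chr11:57640401-57645399, a ratio of 1.57 (1.24 to 2.00), with 1.33 in the inputs. A second H3K27me3 region, chr11:57646001-57647799, had 48 and 86 reads, a ratio of 1.63 (1.13 to 2.37), with 0.686 in the inputs. Krt7 had 87 and 153 reads in chr15:101241801-101245999, a ratio of 1.60 (1.22 to 2.10), with 0.960 in the inputs. These intervals lay above the median of the set, and the input of the first Hand1 region was raised too. Cdx2 had 110 and 138 reads in chr5:148111401-148116399, a ratio of 1.14 (0.880 to 1.48), and the interval of Gata3 in chr2:9798801-9813599, 1.24 (1.04 to 1.49), also held the median of the set. Krt8, with 12 and 34 reads in its H3K4me3 region chr15:101832889-101834940, had a ratio of 2.09 (1.05 to 4.42), with 0.722 in the inputs. The H3K4me3 region of Hand1 had a ratio of 1.93 (1.06 to 3.68). A Tead4 H3K4me3 region away from the start, chr6:128204951-128205605, had 8.83 (1.31 to 378) from 1 and 12 reads, with 2.14 in the inputs. The other H3K4me3 regions of Tead4 had 0.68, 0.92, 1.72 and, at the start, 1.54, and their intervals all held the median of the set. The lowest ratio was that of Gata3 in its H3K4me3 region chr2:9799622-9801365, 0.476 (0.202 to 1.08). No region of these sets lay on Elf5, so its 5hmC was not measured in the data used.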

How the data were processed

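RNA-seq reads (single-end, stranded) were aligned by the authors to mm9 with HISAT2 2.0.1, per the labels, although the deposited headers carry a file name used by TopHat, and unique reads were counted over exons with featureCounts (1.5.0-p1 per the file headers, 1.5.1 per the labels). The deposited gene, repeat and 5hmC values are raw counts of reads. H3K4me3 and H3K27me3 peaks were deposited by the authors per replicate with a score against input, and KAP1 and H3K9me3 regions as lists. MACS 1.4, SICER 1.1 and bedtools 2.25 are named in the submitters' processing notes.

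Symbols were taken from GENCODE M1 for 37205 of 37991 identifiers. Genes with at least 16 reads were tested in R 4.3.3 with edgeR 4.0.16 (TMM, robust quasi-likelihood F test) in one fit of 6 groups, with Benjamini-Hochberg adjustment per contrast. SE is the log2 change divided by the square root of F. The fit was tested on simulated data, with changes of over 2-fold put only on genes with far more reads than Elf5 and Hand1. It therefore says nothing about calls that rest on few reads. limma-voom (limma 3.58.1), DESeq2 1.42.0, other scalings, filters, library sets and a replicate block were alternatives. The members and lists were chosen with earlier results of these data known. Listed genes named in the text were, per list and comparison, up to 3 called genes with the largest change among those with at least 200 reads, besides the 10 members, the targeted genes, the neighbours of Elf5 and the 5 genes most like it. The text prints examples of them, and 1 listed gene is not reported here. Intervals and floors of 3 reads cover counting error only, at 95%.

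Deviations from the group means correlated between same-numbered libraries of WT shEmpty and WT shKap1 (r of 0.118 to 0.274) and of shEmpty in WT and DNMT TKO (0.135 to 0.317), with every pair above 0.1. Between the hairpins of DNMT TKO r was 0.0781 to 0.33. The other pairs of WT and DNMT TKO groups also had some values below 0.1. Every pair with a TET TKO group lay between -0.0484 and 0.0156. Replicate 2 of hMeDIP, whose labels and file names disagree and the files on imprinting regions were not used here. Plots were drawn with matplotlib 3.10.9 and intervals with scipy 1.17.1 in Python 3.11.15.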

Additional observations from a re-analysis of the deposited data

Results flagged for a closer look

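The interaction term of the edgeR fit, which tests whether the effect of the Kap1 hairpin differs between genotypes, was called for 3 members. For Cdx2 the log2 effect in DNMT TKO minus that in WT was -2.37 (adjusted p = 2.32e-05). Cdx2 fell in 3 of 3 DNMT TKO shKap1 libraries below every shEmpty library, and the hairpins overlapped in WT. For Krt18 the same difference was -1.43 (adjusted p = 0.0148), with all 3 WT shKap1 libraries above WT shEmpty and an overlap in DNMT TKO. For Hand1 the effect in TET TKO minus that in WT was -3.56 (adjusted p = 0.0378), with all 3 WT shKap1 libraries above shEmpty and both TET TKO shKap1 libraries below shEmpty. Hand1 rests on 4 reads in WT shEmpty, and its call was lost in 9 of 10 fits that left out 1 library (-3.85 to -3.19 in these 9) and with limma-voom (-3.38, adjusted p = 0.0519). Over its 18 alternatives the adjusted p ran from 0.0111 to 0.112, with the call kept in 8. Trim28 fell by -2.13 in DNMT TKO and -3.41 in WT, and the part of that gap in the DNMT TKO differences was not tested.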

How the results depend on the processing

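No call of a member changed direction in any alternative. With the replicate number as a block, the counts of members called stayed at 4, 2 and 2 for the knockdown in WT, DNMT TKO and TET TKO. They stayed at 7 and 3 for DNMT TKO and TET TKO against WT. For the difference of the knockdown effect in DNMT TKO and TET TKO from WT they stayed at 2 and 1. None of the 70 member values changed between called and not called. Same-numbered libraries did not deviate together in any pair with a TET TKO group, so the block cannot show a shared batch there. For the TET TKO difference the count was 1 as reported, 2 with at least 1 CPM in at least 2 libraries, 2 with only the libraries of the groups compared (Hand1 and Tfap2c in both), 0 with limma-voom and 1 with DESeq2, which called Tfap2c (-1.08) and gave no adjusted p for Hand1. For the DNMT TKO difference it was 2, and 4 (Cdx2, Elf5, Krt18 and Krt8) when the 4 libraries numbered 1 of WT and DNMT TKO were left out together, an alternative chosen after seeing the data. The Elf5 value there, 6.39 (adjusted p = 0.0225), rested on 0 reads in WT shKap1 libraries 2 and 3. DNMT TKO libraries 2 and 3 had 3 and 0 reads with shEmpty and 4 and 1 with shKap1. The share of all genes called was not counted for the alternatives. Leaving out 1 library at a time gave 2 to 5 members called for the knockdown in WT, 1 to 3 in DNMT TKO, 1 to 2 in TET TKO, 6 to 7 for DNMT TKO against WT, 2 to 3 for TET TKO against WT, 2 to 3 for the DNMT TKO difference and 0 to 1 for the TET TKO difference. Of the 70 values, 69 kept their call with the size factors of DESeq2 and with no filter on reads, and 68 with limma-voom. The exception with size factors and with no filter was Tead4 in DNMT TKO, at -0.97 and -0.99, short of 2-fold. With DESeq2, 65 of 67 values stayed called or not called as reported, Tead4 in DNMT TKO (-0.98) again being lost. Elf5 was not tested where at least 1 CPM was required. H3K4me3 was at 5 members instead of 8 with peaks above the median, and 2 of the 5 genes most like Elf5 were kept with Spearman's rho. The cause was not tested for these. Depth limits Elf5 and Hand1 most, at 38 and 171 reads over 16 libraries.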
